A study of Mus musculus with 12 samples.

Results

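The 34 genes described here encode the regulators and enzymes of fatty acid and triglyceride synthesis. They were taken by gene symbol from a list of 34 names, and all 34 are among the 16703 genes of the whole-liver table. In the table of liver sinusoidal endothelial cells (LSEC), 33 of the 34 are among the 16273 genes, and Pnpla5 is not listed. By role the list holds 3 regulators, 8 genes of chain synthesis and its precursors, 4 desaturases, 6 elongases, 3 acyl-CoA synthetases, 8 genes of glycerolipid assembly and 2 patatin-like lipases.

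All samples came from C57BL/6 mice, and each of the 4 groups had 3 RNA-seq libraries: livers of mice with nonalcoholic steatohepatitis (NASH), livers of mice on chow, LSEC from NASH mice and LSEC from chow mice. The NASH diet was Research Diets D09100301, and the protocol that gives its length as 36 weeks is attached to every sample, the chow ones included. The LSEC were the CD146-positive fraction of non-parenchymal cells that was left after CD11b-positive cells had been taken out with magnetic beads. No label gives the sex of the mice, or says whether replicates were separate animals or pools. The p-values therefore measure the spread between these samples, which may be technical in part.

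New fatty acids are built in the cytosol from citrate that leaves the mitochondria. ATP citrate lyase makes acetyl-CoA from it, acetyl-CoA carboxylase makes malonyl-CoA, and fatty acid synthase joins these into palmitate. Elongases and desaturases lengthen and unsaturate the chain, acyl-CoA synthetases activate it, and acyltransferases and phosphatases place it on glycerol, ending with the DGAT enzymes that make triglyceride. In liver the insulin-responsive factor SREBP-1c and the carbohydrate-responsive factor ChREBP are known to drive many of these genes, and hepatocytes are the main site of the pathway.

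Promoters are shown for 4 genes whose levels rose in NASH in liver, in LSEC or in both. Sites farther from the start than these windows reach are not covered. Each is the RefSeq sequence of 300 bases in GRCm38.p6, from 250 bases before the annotated start to 50 after it, read 5′ to 3′ on the gene's strand. Capitals mark the letters CACGTG (an E-box) and CCAAT or its reverse complement ATTGG.
Mlxipl, chr5:135089640-135089939, plus strand: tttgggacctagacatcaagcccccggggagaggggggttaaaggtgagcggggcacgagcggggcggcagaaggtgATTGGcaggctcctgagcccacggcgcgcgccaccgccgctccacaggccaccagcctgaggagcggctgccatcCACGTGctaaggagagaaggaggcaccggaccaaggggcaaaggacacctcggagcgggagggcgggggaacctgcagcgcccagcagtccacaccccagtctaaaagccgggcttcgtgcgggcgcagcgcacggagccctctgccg
Thrsp, chr7:97417501-97417800, minus strand: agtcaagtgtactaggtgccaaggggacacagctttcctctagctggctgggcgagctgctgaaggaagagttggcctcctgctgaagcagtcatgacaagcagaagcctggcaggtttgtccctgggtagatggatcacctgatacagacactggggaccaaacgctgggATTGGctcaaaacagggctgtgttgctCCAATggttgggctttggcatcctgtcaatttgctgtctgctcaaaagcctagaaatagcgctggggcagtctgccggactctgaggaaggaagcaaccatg
Fasn, chr11:120824498-120824797, minus strand: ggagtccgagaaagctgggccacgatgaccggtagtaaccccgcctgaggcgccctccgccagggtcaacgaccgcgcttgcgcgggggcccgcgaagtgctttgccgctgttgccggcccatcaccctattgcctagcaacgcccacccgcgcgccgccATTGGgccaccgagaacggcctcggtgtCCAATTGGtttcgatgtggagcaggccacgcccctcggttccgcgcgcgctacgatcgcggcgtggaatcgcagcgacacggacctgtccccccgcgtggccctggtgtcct
Mogat1, chr1:78510810-78511109, plus strand: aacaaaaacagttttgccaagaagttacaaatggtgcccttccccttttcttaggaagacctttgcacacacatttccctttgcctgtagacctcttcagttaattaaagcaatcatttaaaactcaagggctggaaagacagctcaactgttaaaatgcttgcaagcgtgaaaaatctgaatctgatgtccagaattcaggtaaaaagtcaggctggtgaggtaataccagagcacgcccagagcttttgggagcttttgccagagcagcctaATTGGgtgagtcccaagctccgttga
The Mlxipl window, the more upstream of 2 RefSeq starts, held CACGTG 98 bases before the start, and it was the only one of the 4 printed windows with an E-box. The window of the other Mlxipl start, not printed, held neither CACGTG nor CCAAT on either strand. Of the 34 genes 28 had an entry, with 37 windows in all. On both strands, CACGTG stood in 5 of the 37 windows (13.5%, against 7.15% of 32851 RefSeq windows), in Elovl5, Lpin2, Mlxipl, Pnpla5 and Slc25a1. CCAAT stood in 19 of 37 (51.4%, against 37.4%). The classical sterol response element, searched in 1 exact form, stood in 0 of 37, against 0.0913% of all windows. These matches describe letters in a window and not sites of binding.

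The tissue labels were set against fixed marker lists. LSEC libraries carried high summed levels of the 8 sinusoidal endothelial markers, 283387 to 297023 normalized reads in NASH and 491752 to 546998 in chow. They also held hepatocyte transcripts: the 10 hepatocyte markers summed to 40089 to 85746 normalized reads in NASH LSEC and 7361 to 85293 in chow LSEC, so the chow libraries alone ranged more than 10-fold. Macrophage markers summed to 43690 to 54974 in NASH LSEC and 9876 to 27533 in chow LSEC, stellate cell markers to 42395 to 80259 and 11638 to 33543, and cholangiocyte markers to 10347 to 47197 and 4137 to 9385. In whole liver the hepatocyte markers summed to 3353970 to 3792808 in NASH and 6911565 to 7483763 in chow, while macrophage, stellate and cholangiocyte sums were each higher in all NASH livers than in any chow liver. No marker of any list was at 0 in a group. Liver libraries held 47000197 to 57397720 recovered reads and LSEC libraries 18527017 to 19402863.

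In whole liver the pathway did not move as 1 block. The 3 regulators, both stearoyl-CoA desaturases and both patatin-like lipases rose. The polyunsaturated desaturases, the elongases of polyunsaturated chains, the listed acyl-CoA synthetases and most of the listed glycerolipid enzymes fell. Of the 34 genes, 13 were higher, 17 were lower and 4 did not pass the test (limma, Benjamini-Hochberg adjusted p under 0.05 over all genes). Over all 16703 genes 46.0% were called, 25.0% higher and 21.0% lower, so the share of calls in the list is to be read against a large background. The median log2 fold change of the list was -0.45, against 0.02 over all genes. When libraries were scaled by their total reads instead, the median of all genes moved up by 0.401 and the list had 15 higher and 10 lower. Over all 16703 genes 7878 were higher and 904 lower under that scaling. In 12 genes all NASH libraries lay above all chow libraries and in 15 below (29.8% and 27.3% of all genes).

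**Figure D1:**
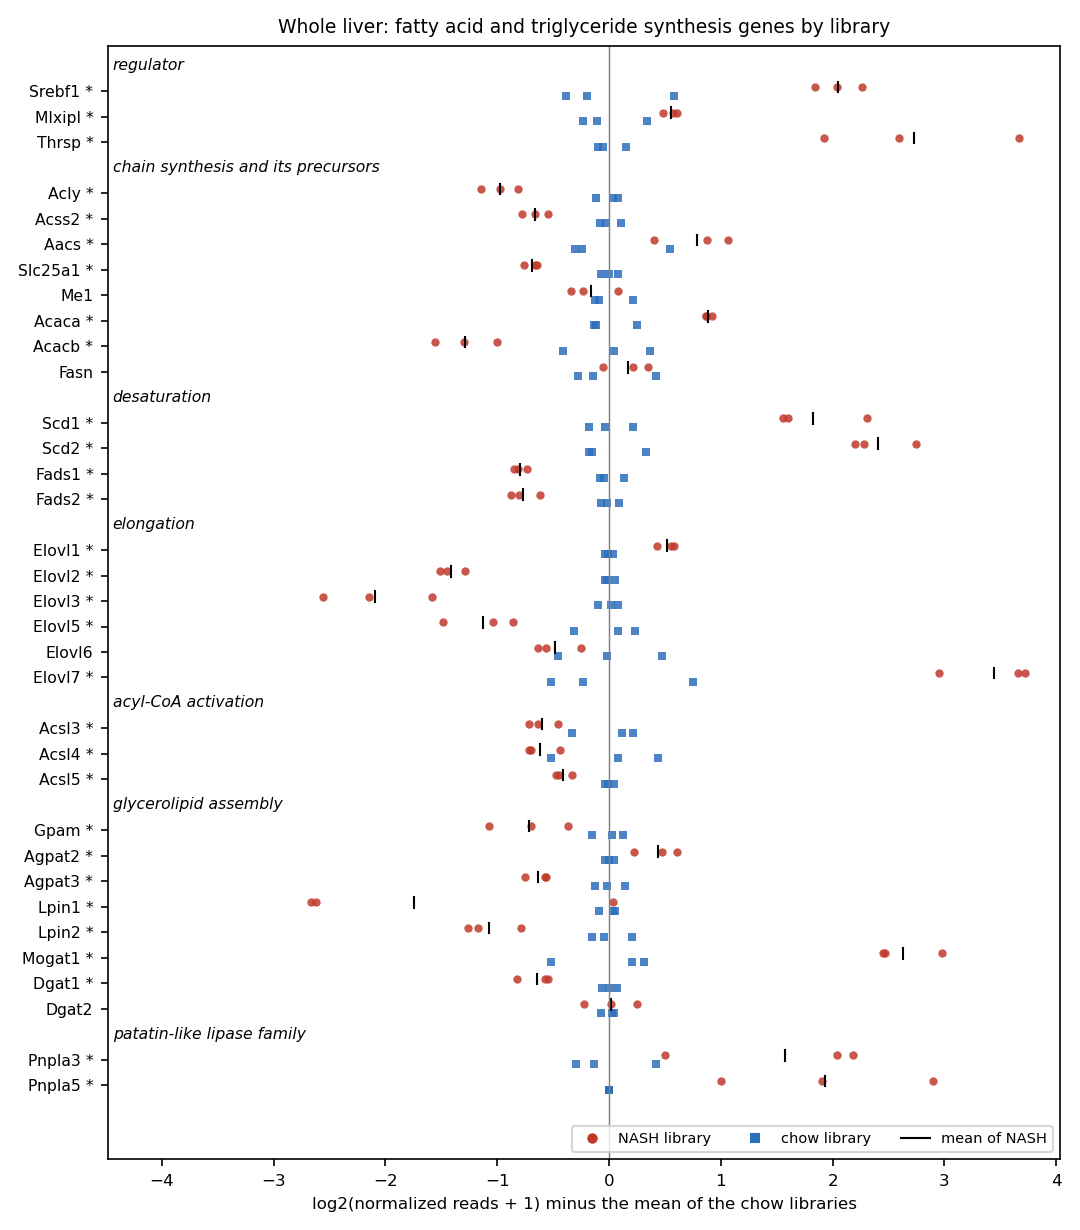
Each row is a gene of the liver table, grouped by role; the horizontal axis is log2(normalized reads + 1) minus the mean of the 3 chow livers, circles are NASH livers, squares chow livers, the black tick is the NASH mean and an asterisk marks adjusted p under 0.05. Regulators, Scd1, Scd2, Elovl7 and Mogat1 lie to the right, Elovl2, Elovl3, Elovl5, Lpin2 and Acacb to the left, and Lpin1 has 1 NASH library among the chow libraries; 7 of the 17 lower calls do not pass when libraries are scaled by total reads.

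The 3 regulators were all higher in NASH liver. Srebf1, which encodes SREBP-1, had 13157, 11229 and 9817 normalized reads in NASH livers, against 2094, 2386 and 4085 in chow livers. The groups were far apart, and the log2 fold change was 2.05 ± 0.22 (SE, n = 3 each, adjusted p = 8.30e-05). Thrsp, the lipogenesis-associated protein Spot 14, had 28157, 13399 and 8400 in NASH livers, against 2074, 2132 and 2458 in chow livers. Its NASH libraries differed widely among themselves, yet the lowest was still above every chow library (log2 fold change 2.73 ± 0.34, adjusted p = 0.000196). Mlxipl, which encodes ChREBP, had 6429, 6272 and 5892 in NASH livers, against 3594, 3906 and 5329 in chow livers. The groups did not overlap, with a smaller log2 fold change of 0.56 ± 0.14 (adjusted p = 0.00802).

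Among the 8 genes of chain synthesis and its precursors, 2 rose, 4 fell and 2 did not pass. Of the 4 that fell, 3 supply carbon (Acly, Slc25a1 and Acss2) and the other is Acacb. Acly, the ATP citrate lyase, had 4278, 4794 and 3809 normalized reads in NASH livers, against 8907, 7762 and 8607 in chow livers, a log2 fold change of -0.98 ± 0.10 (adjusted p = 8.07e-05). Slc25a1, the mitochondrial citrate carrier, had 7435, 7360 and 6894 in NASH livers, against 11063, 11626 and 12297 in chow livers. Acss2, which makes acetyl-CoA from acetate, had 3392, 3667 and 3118 in NASH livers, against 5084, 5253 and 5774 in chow livers. For both, every NASH library lay below every chow library, with log2 fold changes of -0.69 ± 0.08 for Slc25a1 and -0.66 ± 0.09 for Acss2 (adjusted p = 0.000170 and 0.000367).

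The 2 acetyl-CoA carboxylases went opposite ways. Acaca, which encodes the cytosolic ACC1 that feeds synthesis, had 3179, 3055 and 3057 normalized reads in NASH livers, against 1527, 1541 and 1996 in chow livers. Acacb, which encodes the mitochondria-associated ACC2 known to restrain fatty acid oxidation, had 2232, 1810 and 1512 in NASH livers, against 5763, 4603 and 3349 in chow livers. Neither gene's groups overlapped, and the log2 fold changes were 0.89 ± 0.11 for Acaca (adjusted p = 0.000213) and -1.29 ± 0.19 for Acacb (adjusted p = 0.000599). Of the 50-base words in the Acaca transcript 52.6% also occur in the annotated gene Gm5182, which is not among the genes listed in either table, so how such reads were counted is uncertain; for Acacb the share was 0%.

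Aacs, the cytosolic acetoacetyl-CoA synthetase that feeds ketone body carbon into lipid, had 4671, 4108 and 2956 normalized reads in NASH livers, against 1807, 1884 and 3268 in chow livers. The lowest NASH library was below the highest chow library, and the log2 fold change was 0.78 ± 0.23 (adjusted p = 0.0192). Without the first NASH library the adjusted p of Aacs was 0.102, without the second 0.0648, without the first chow library 0.0676 and without the second 0.0772. Fasn, the fatty acid synthase itself, had 11280, 10282 and 8573 in NASH livers, against 8052, 7318 and 11872 in chow livers, and did not pass the test (log2 fold change 0.17, 95% interval -0.22 to 0.56, adjusted p = 0.452). It passed at 0.59 with scaling by total reads (adjusted p = 0.0189) and without the third chow library (adjusted p = 0.0381). Me1, the malic enzyme that supplies NADPH, ranged over 4846 to 6493 in NASH livers and 5628 to 7105 in chow livers (log2 fold change -0.16, interval -0.45 to 0.13, adjusted p = 0.334), and its sign turned to 0.25 with scaling by total reads. In the Me1 transcript 26.5% of 50-base words occur in other annotated genes, mainly Gm7049, which neither table lists.

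The 4 desaturases split by substrate. The stearoyl-CoA desaturases, which make oleate and palmitoleate, rose. Scd1, on chromosome 19 at 44394455 to 44407879 on the minus strand in mm10, had 510434, 858202 and 527500 normalized reads in NASH livers, against 153181, 201364 and 169265 in chow livers. Its groups averaged 632045 ± 196043 in NASH and 174603 ± 24531 in chow (SD, n = 3 each), a log2 fold change of 1.82 ± 0.26 (adjusted p = 0.000395). Scd2, at 44293674 to 44306864 on the plus strand of the same chromosome, had 1723, 1827 and 2522 in NASH livers, against 329.8, 337.7 and 471.7 in chow livers, a log2 fold change of 2.41 ± 0.18 (adjusted p = 1.24e-05). Scd1 and its relatives share 4.66% of its 50-base words, and for Scd2 the share was 4.01%.

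Scd1 alone took a large part of the sequenced RNA. It held 1.10%, 1.82% and 1.23% of all reads in NASH livers, against 0.250%, 0.325% and 0.289% in chow livers, and the widest Wilson 95% interval of these was 1.812% to 1.820%. The other 33 genes together held 0.551% to 0.630% in NASH livers and 0.612% to 0.655% in chow livers. The share of Scd1 was thus higher in every NASH liver, and the ranges of the other genes together overlapped.

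The fatty acid desaturases of polyunsaturated chains fell. Fads1, the delta-5 desaturase, had 15369, 16667 and 15779 normalized reads in NASH livers, against 26149, 26763 and 30331 in chow livers. Fads2, the delta-6 desaturase, close to it on chromosome 19, had 18779, 21327 and 17797 in NASH livers, against 34904, 32227 and 31181 in chow livers. The groups of both genes were well separated, with log2 fold changes of -0.80 ± 0.10 for Fads1 and -0.77 ± 0.11 for Fads2 (adjusted p = 0.000176 and 0.000344).

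The 6 elongases held both the largest rise and the largest fall of the list. Elovl7, which elongates saturated and monounsaturated chains, had 344.2, 202.1 and 329 normalized reads in NASH livers, against 21.35, 17.26 and 43.07 in chow livers, a log2 fold change of 3.44 ± 0.35 (adjusted p = 6.57e-05). Elovl1, which makes very long saturated chains, had 2409, 2682 and 2633 in NASH livers, against 1841, 1752 and 1784 in chow livers, a log2 fold change of 0.52 ± 0.08 (adjusted p = 0.000808). In neither gene did the groups overlap.

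Elovl2, which elongates the longer polyunsaturated chains, had 20734, 23170 and 19813 normalized reads in NASH livers, against 55904, 58721 and 55098 in chow livers. Elovl5, which acts earlier on the same polyunsaturated chains, had 17772, 27266 and 24102 in NASH livers, against 58281, 52316 and 40033 in chow livers. Elovl3, a liver and brown fat elongase of saturated and monounsaturated chains, had 1331, 1978 and 1003 in NASH livers, against 6238, 5533 and 5990 in chow livers. All 3 genes were lower in every NASH library, by -1.42 ± 0.10 for Elovl2, -1.13 ± 0.18 for Elovl5 and -2.10 ± 0.20 for Elovl3 on the log2 scale (adjusted p = 1.24e-05, 0.000875 and 4.78e-05). Elovl6, which lengthens palmitate to stearate, had 3333, 4136 and 3172 in NASH livers, against 6820, 4849 and 3591 in chow livers, and missed the threshold (log2 fold change -0.48 ± 0.20, adjusted p = 0.0758). Its adjusted p was 0.0255 with DESeq2 and 0.00806 without the third chow library.

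The 3 acyl-CoA synthetases, which activate fatty acids for further use, each fell, but none passed when libraries were scaled by total reads. Acsl5 had 13765, 15201 and 13968 normalized reads in NASH livers, against 18996, 19688 and 18547 in chow livers (log2 fold change -0.42 ± 0.09, adjusted p = 0.00377, and 0.0006 with adjusted p = 0.996 under that scaling). Acsl3 had 778.4, 736.9 and 880.8 in NASH livers, against 963.3, 1311 and 1404 in chow livers (-0.60 ± 0.15, adjusted p = 0.00787, and 0.371 under that scaling). Acsl4, which prefers arachidonate, had 3664, 4367 and 3612 in NASH livers, against 8060, 6277 and 4135 in chow livers (-0.62 ± 0.20, adjusted p = 0.0309, and 0.387 under that scaling). Acsl3 and Acsl5 showed no overlap between groups, whereas 1 NASH library of Acsl4 lay above 1 chow library. The adjusted p of Acsl4 was 0.116 without the first NASH library, 0.108 without the third, 0.0987 without the first chow library and 0.0936 without the second.

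Of the 8 genes of glycerolipid assembly 2 rose, 5 fell and 1 did not pass. Mogat1, the monoacylglycerol acyltransferase that enters the pathway beside the glycerol phosphate route, had 408.5, 588.1 and 412.6 normalized reads in NASH livers, against 85.42, 91.72 and 51.27 in chow livers. The groups were far apart (log2 fold change 2.63 ± 0.25, adjusted p = 4.49e-05). Without strand in the library kit, reads over the 12.8% of its exon bases shared with BC035947 cannot be told apart; the next largest overlaps are 8.31% for Acsl5 with Zdhhc6 and 6.78% for Pnpla3 with Gm49513. Agpat2, which makes phosphatidic acid, had 11713, 10715 and 8960 in NASH livers, against 7683, 7488 and 7909 in chow livers (0.44 ± 0.11, adjusted p = 0.00800).

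Most of the other listed genes of the glycerol phosphate route were lower. Of the 8 assembly genes in a further list, given below, 4 were higher, 1 was lower and 3 did not pass. Over all genes 25.0% were higher and 21.0% lower. Gpam, the mitochondrial acyltransferase of the first step, had 4157, 6769 and 5399 normalized reads in NASH livers, against 8920, 7871 and 9531 in chow livers (-0.71 ± 0.16, adjusted p = 0.00511, and 0.150 with scaling by total reads). Agpat3, an acyltransferase of phosphatidic acid and phospholipid synthesis, had 13086, 13095 and 11495 in NASH livers, against 21444, 19134 and 17831 in chow livers (-0.63 ± 0.10, adjusted p = 0.000907, and 0.0545 under that scaling). Lpin2, a phosphatidate phosphatase that yields diacylglycerol, had 20721, 15955 and 14985 in NASH livers, against 34650, 32268 and 41219 in chow livers (-1.07 ± 0.14, adjusted p = 0.000298). None of these groups overlapped, and of the 3 genes Lpin2 alone kept its call under that scaling (-0.66).

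Lpin1, the phosphatidate phosphatase that also acts as a coactivator, was divided within NASH. It had 15659, 2477 and 2406 normalized reads in NASH livers, against 14316, 15647 and 15830 in chow livers. The first NASH library was among the chow livers and the other two were far below them. The log2 fold change was -1.75 ± 0.58 (adjusted p = 0.0324); without the first NASH library it was -2.64 (adjusted p = 4.62e-05), and with edgeR and DESeq2 the adjusted p was 0.143 and 0.288. Without any other single library it was 0.0603 to 0.143.

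The 2 enzymes of the last step differed. Dgat1 had 1263, 1243 and 1042 normalized reads in NASH livers, against 1935, 1841 and 1768 in chow livers (-0.65 ± 0.10, adjusted p = 0.000720, and 0.0579 with scaling by total reads). Dgat2, known as the enzyme that uses newly made fatty acids in liver, had 36111, 30829 and 25931 in NASH livers, against 28963, 30884 and 31327 in chow livers. Its groups overlapped (log2 fold change 0.01, interval -0.27 to 0.30, adjusted p = 0.938), and under that scaling it was higher at 0.43 (adjusted p = 0.00757).

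The 2 patatin-like lipases, which lie near each other on chromosome 15 and are known to respond to SREBP-1c, rose at very low levels. Pnpla3 had 31.21, 10.05 and 34.59 normalized reads in NASH livers, against 9.491, 5.395 and 6.153 in chow livers (1.57 ± 0.50, adjusted p = 0.0273). The lowest NASH value was close to the highest chow value, and leaving out the first NASH library (0.104), the third NASH library (0.111), the second chow library (0.0868) or the third chow library (0.0614) took the adjusted p past the threshold. Pnpla5 had 3, 1 and 8 reads in NASH livers and 0 in each chow liver, which is at least 3.10-fold higher when chow is set at 3 reads over the group. Its adjusted p was 0.0352, and 0.101 with DESeq2; of the single libraries left out, only the second NASH library left it under the threshold, and the others gave 0.0577 to 0.129.

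Levels per kilobase of exon were ordered within liver. In NASH livers Scd1 came first at 129200 normalized reads per kb, followed by Dgat2 at 10041, Thrsp at 7607, Elovl5 at 6544 and Fads2 at 5858. In chow livers Scd1 was first at 35692, followed by Elovl2 at 14265, Elovl5 at 14256, Fads2 at 9946 and Dgat2 at 9858. Scd1 thus headed both diets, and Elovl2 was the next gene in chow but the sixth in NASH, at 5355.

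In whole liver, fewer cells of a type and less RNA per cell cannot be told apart, and hepatocyte transcripts as a whole were lower in NASH. Alb had 2101050, 2013988 and 1962587 normalized reads in NASH livers, against 3858625, 4348774 and 4181701 in chow livers. Alb itself was lower in every NASH liver, and counted per Alb read of the same library 82.4% of all other genes had every NASH library above every chow library and 1.41% below. The counts in the list are to be read against that. All 13 higher genes were above on this ratio, Aacs included, whose groups had overlapped before it. Of the 17 lower genes, 7 (Acss2, Slc25a1, Fads1, Acsl3, Acsl5, Agpat3 and Dgat1) had every NASH library above every chow library, 8 overlapped, and Elovl2 and Elovl3 were below. Elovl2 had 9.87 to 11.5 reads per 1000 Alb reads in NASH livers and 13.2 to 14.5 in chow livers, and Elovl3 had 0.511 to 0.982 and 1.27 to 1.62. Fasn, Me1 and Dgat2, which had not passed the test, were above chow in every NASH library on this ratio, Dgat2 with 13.2 to 17.2 in NASH livers and 7.10 to 7.51 in chow livers. These ratios are descriptions, and the part of Alb's own change in them was not tested.

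In LSEC fewer genes passed. Of the 33 listed genes 4 were higher (Mlxipl, Fasn, Scd1 and Mogat1) and 0 were lower by limma, with 19 at an unadjusted p under 0.05. Over all 16273 genes 8.11% were called, 5.24% higher and 2.86% lower. DESeq2 on the recovered reads called 11 higher, edgeR 3 and limma with scaling by total reads 9, and each of them called 0 lower. Over all 16273 genes they called 1581, 742 and 1164 higher and 922, 423 and 273 lower, in the same order. The authors' deposited table also has 11 higher and 0 lower under an adjusted p of 0.05, 3 of them among the 4 of limma. The median log2 fold change of the list was 0.36, against 0.0001 over all genes. In 13 genes all NASH libraries lay above all chow libraries and in 5 below (16.5% and 15.4% of all genes).

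**Figure D2:**
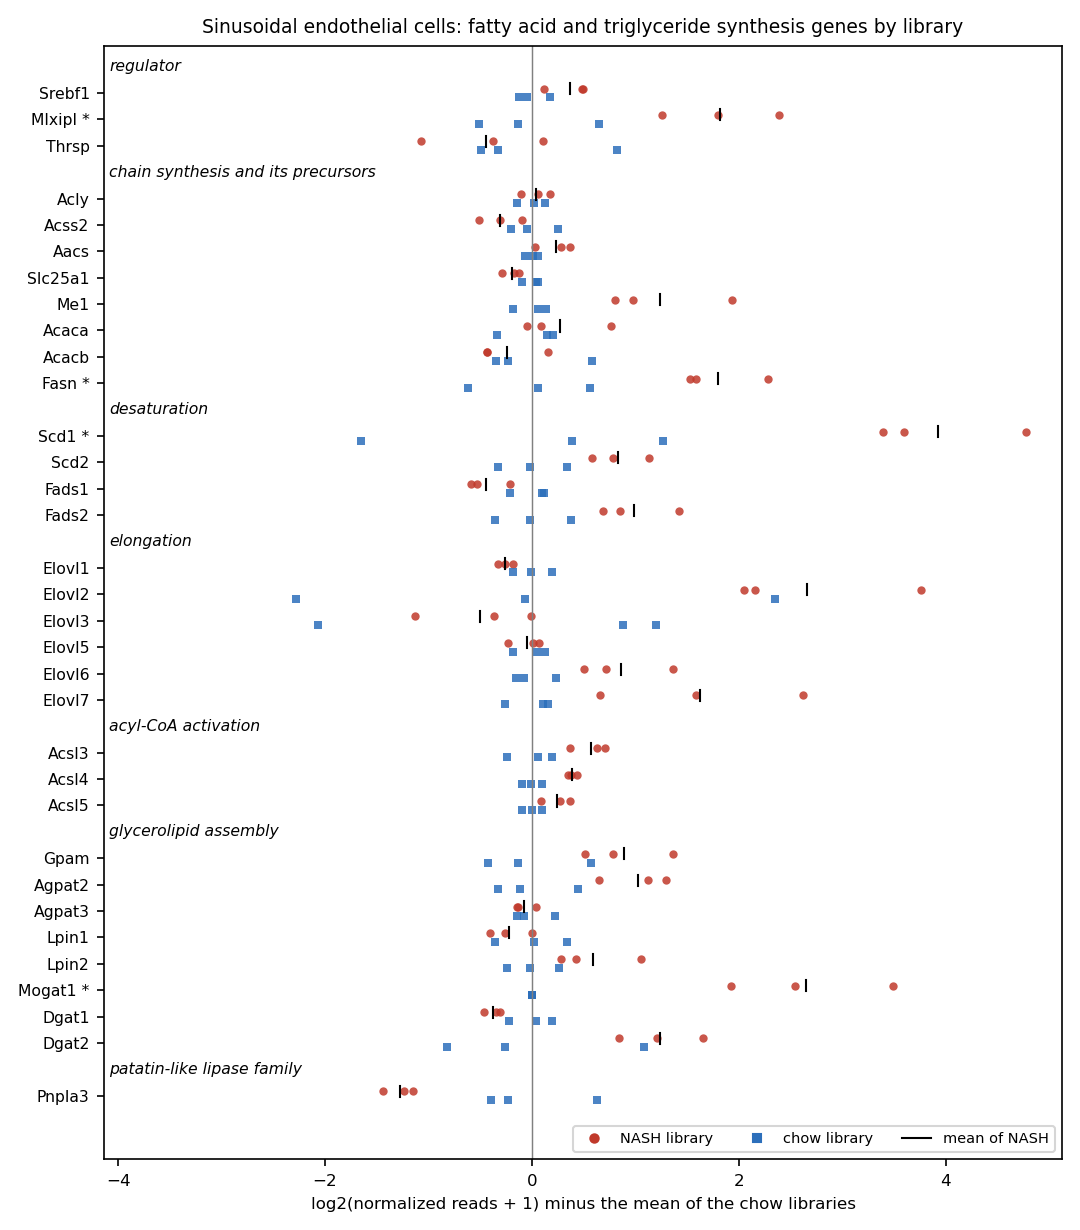
Each row is a gene of the LSEC table, grouped by role; the horizontal axis is log2(normalized reads + 1) minus the mean of the 3 chow libraries, circles are NASH libraries, squares chow libraries, the black tick is the NASH mean and an asterisk marks adjusted p under 0.05. Mlxipl, Fasn, Scd1 and Mogat1 lie to the right, and the chow libraries of Scd1, Elovl2 and Elovl3 are themselves widely spread.

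Scd1 showed the largest difference in LSEC. It had 11170, 12805 and 28936 normalized reads in NASH LSEC, against 1389, 2547 and 335.7 in chow LSEC. The groups were far apart although the chow libraries varied widely (log2 fold change 3.92 ± 0.72, adjusted p = 0.0256). Fasn had 986.5, 943.3 and 1599 in NASH LSEC, against 340.6, 483.1 and 212.9 in chow LSEC (1.80 ± 0.33, adjusted p = 0.0254). Mlxipl had 103.4, 151.2 and 227.7 in NASH LSEC, against 38.65, 67.45 and 29.69 in chow LSEC (1.82 ± 0.41, adjusted p = 0.0415). For these 3 genes every NASH library was above every chow library, and the chow library with the fewest Alb reads was the lowest.

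Mogat1 was near the limit of detection in LSEC, with 5, 3 and 11 reads in NASH libraries and 0 in each chow library. This is at least 5.66-fold higher when chow is set at 3 reads over the group. Its adjusted p was 0.0355 with limma, 0.0755 with edgeR and 0.0588 with DESeq2.

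The LSEC calls rested on single libraries. Leaving out the second NASH library left 0 genes higher, and so did leaving out the third. Leaving out the first NASH library gave 1, Elovl7 (0.0489), which had not passed before, and leaving out the third chow library left 1, Scd1. Leaving out the first chow library gave 4, of which Scd2 (0.0388) and Fads2 (0.0445) had not passed before, and leaving out the second gave 6, of which Elovl2 (0.0397), Dgat2 (0.0297) and Agpat2 (0.0411) had not. The second chow library had the most Alb reads. Each of Mlxipl, Fasn, Scd1 and Mogat1 missed the threshold without any 1 of the NASH libraries, with adjusted p of up to 0.148 for Mlxipl, 0.0948 for Fasn, 0.0991 for Scd1 and 0.123 for Mogat1. Leaving out the third chow library also ended the calls of Mlxipl (0.130), Fasn (0.0685) and Mogat1 (0.0972), and leaving out the first ended those of Mlxipl (0.0822) and Mogat1 (0.0618). Mogat1 also missed it without the second chow library (0.0626).

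The other regulators did not pass in LSEC. Srebf1 had 1731, 1344 and 1747 normalized reads in NASH LSEC, against 1401, 1195 and 1137 in chow LSEC (log2 fold change 0.36 ± 0.15, adjusted p = 0.180). Thrsp had 218.4, 353.6 and 493.6 in NASH LSEC, against 325.9, 811.6 and 365.4 in chow LSEC, with overlapping groups (-0.45 ± 0.42, adjusted p = 0.543).

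A further 8 genes that missed the limma threshold are called higher in the authors' deposited table. They are Me1, Scd2, Fads2, Elovl6, Elovl7, Acsl3, Acsl4 and Agpat2, with limma adjusted p of 0.0558 to 0.0947. Scd2 had 4102, 3573 and 5241 normalized reads in NASH LSEC, against 3024, 1908 and 2366 in chow LSEC. Fads2 had 1163, 1308 and 1936 in NASH LSEC, against 938.1, 566.8 and 714.5 in chow LSEC. Agpat2 had 237.7, 373.2 and 329.1 in NASH LSEC, against 120.1, 206.7 and 139.2 in chow LSEC. None of these 3 genes had overlapping groups.

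By role in LSEC, 1 of 3 regulators, 1 of 8 genes of chain synthesis, 1 of 4 desaturases and 1 of 8 assembly genes was higher, and 0 of 6 elongases, 0 of 3 acyl-CoA synthetases and 0 of 1 lipase passed in either direction. The lowest log2 fold change was that of Pnpla3 (-1.28 ± 0.41, adjusted p = 0.102), with 8.696, 9.33 and 7.436 normalized reads in NASH LSEC, against 34.47, 18.5 and 16.38 in chow LSEC. Per kilobase of exon, NASH LSEC had Scd1 first at 3605 normalized reads, followed by Elovl5 at 1041 and Acsl5 at 872.8. Chow LSEC had Elovl5 first at 1079, followed by Elovl1 at 745 and Acsl5 at 736.6, and Scd1 stood at 291.1.

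Hepatocyte RNA in the LSEC libraries moved with several of these genes. Alb had 27790, 34837 and 54247 normalized reads in NASH LSEC, against 11003, 61571 and 5800 in chow LSEC. Scd1 had 402, 368 and 533 reads per 1000 Alb reads in NASH LSEC, against 126, 41.4 and 57.9 in chow LSEC. The same ratio was 243, 426 and 269 in NASH livers, against 39.7, 46.3 and 40.5 in chow livers, so its median in LSEC was 1.49 times that in liver in NASH and 1.43 times in chow. The part of hepatocyte RNA in the Scd1 difference of LSEC was not tested. Elovl2's ratio in LSEC was 0.865 times the liver median in NASH and 0.334 times in chow, and that of Dgat2 0.597 times in NASH and 0.963 times in chow.

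Per Alb read, the LSEC median was under 2 times the liver median for 8 of the 33 genes in NASH and for 5 in chow. In NASH these included Mlxipl at 1.37 times, Thrsp at 1.37 times, Agpat2 at 1.61 times and Mogat1 at 0.827 times, beside Scd1, Elovl2 and Dgat2 above and Elovl3. Others had much higher ratios in LSEC than in liver. Among them were Scd2, Elovl7 and Elovl1, which rose in whole liver. Their LSEC medians were 113, 21.9 and 38.2 times those of liver in NASH, and 3216, 858 and 379 times in chow. The part of cells other than hepatocytes in their rise in whole liver was not tested. Acly had a median of 102 reads per 1000 Alb reads in NASH LSEC and 317 in chow LSEC, against 2.04 in NASH livers and 2.06 in chow livers. Srebf1 had 38.6 in NASH LSEC and 127 in chow LSEC, against 5.58 in NASH livers and 0.549 in chow livers. Fasn had 29.5 in NASH LSEC and 31.0 in chow LSEC, which overlapped, against 5.11 in NASH livers and 2.09 in chow livers. Of the 4 genes called higher in LSEC, Scd1 and Mogat1 were above chow in every NASH library on this ratio, and Mlxipl and Fasn overlapped; over all LSEC genes 1.92% were above and 2.34% below. The part of hepatocyte RNA in these values was not tested.

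**Figure D3:**
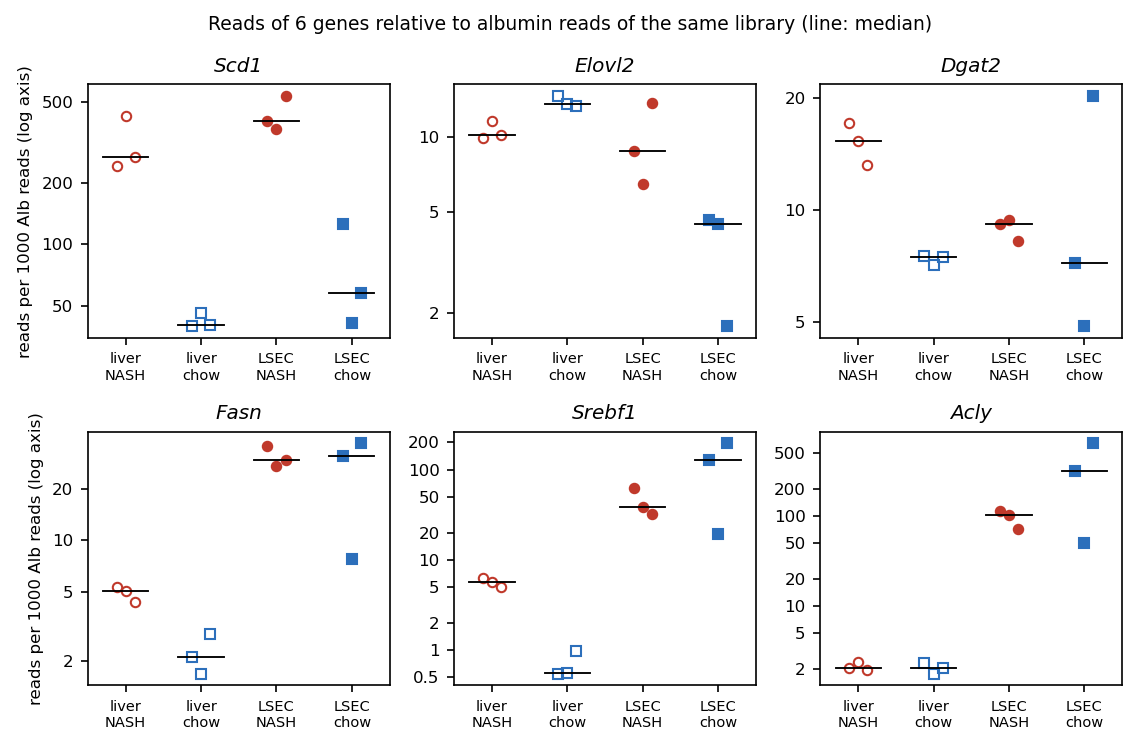
Reads per 1000 Alb reads of the same library on log axes for 6 genes; open symbols are livers, filled symbols LSEC, circles NASH, squares chow, and the line is the group median. The LSEC median of Scd1 is 1.49 times that of liver in NASH and 1.43 times in chow, and that of Elovl2 0.865 times in NASH and 0.334 times in chow, whereas Acly, Srebf1 and Fasn are several times to many times higher per Alb read in LSEC than in liver.

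The NASH effect differed between the tissues for most of the list. The difference of the 2 log2 fold changes, liver minus LSEC, passed the test for 20 of 33 genes (t test on the difference from the limma fits with Satterthwaite degrees of freedom, adjusted p under 0.05 over 15766 genes). Over all of these 19.5% were called, 11.5% with the higher effect in liver and 7.99% in LSEC. In 6 genes the effect was higher in liver and in 14 it was higher in LSEC. A higher effect in LSEC need not be a rise there, and of the 14 only Fasn was called in LSEC by limma. The sign was below 0 in liver and above 0 in LSEC for 10 of the 20, the reverse for 3 and shared for 7. None of the genes with opposite signs was called in LSEC by limma, and Me1 and Elovl6 were not called in liver either. By limma their signs are therefore not changes called in both tissues. In the authors' deposited table Fads2, Elovl6, Acsl3 and Acsl4 are called lower in liver and higher in LSEC. The other genes with opposite signs are not called in both tissues there. The 10 hepatocyte markers had a median log2 fold change of -1.04 in liver and 1.64 in LSEC, where none passed. The part of hepatocyte RNA in the differences of the list was not tested.

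**Figure D4:**
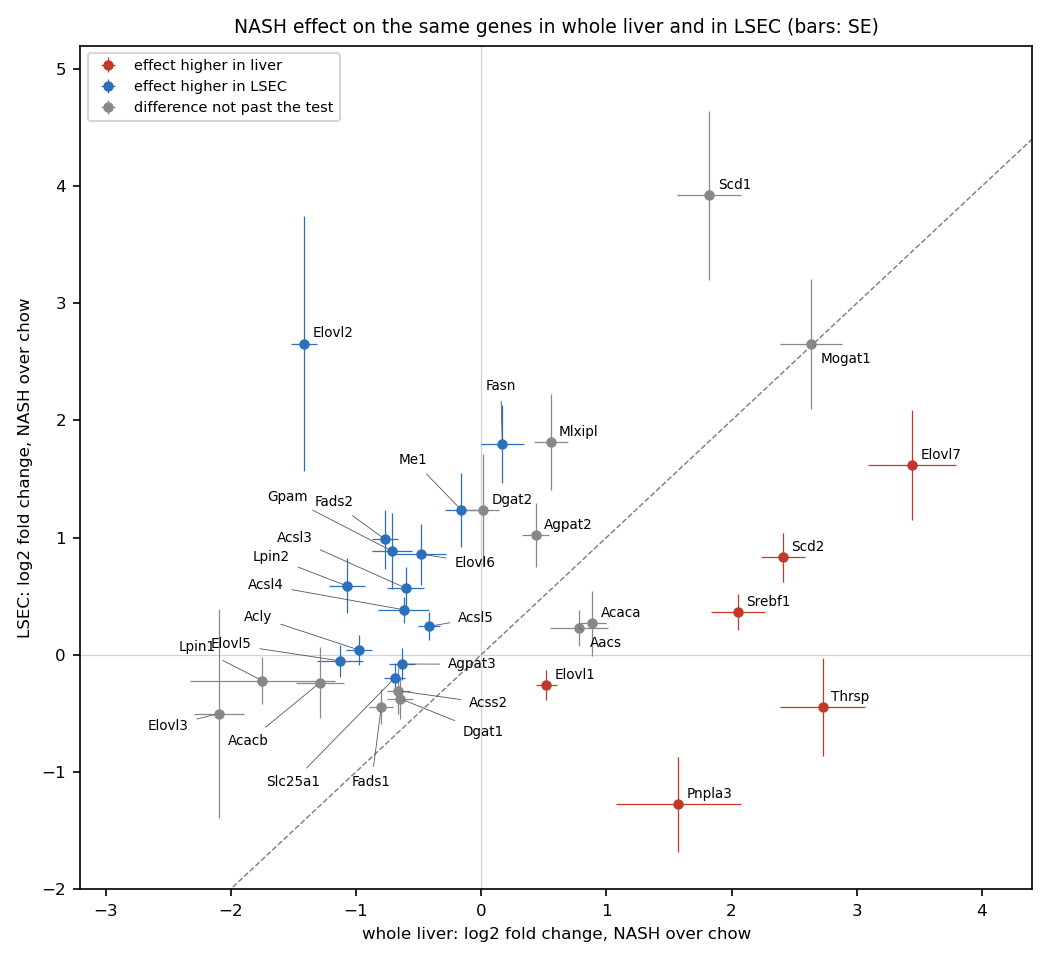
Log2 fold change of NASH over chow in whole liver (horizontal) and in LSEC (vertical) for the 33 genes in both tables, with SE bars; the dashed line marks equal effects, and color marks whether the difference passed the test. The 6 genes below the line in red are Srebf1, Thrsp, Scd2, Elovl1, Elovl7 and Pnpla3, and the 14 in blue lie above the line.

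Among regulators the effect was higher in liver for Srebf1, by 1.69 ± 0.26 (adjusted p = 0.000483), and for Thrsp, by 3.18 ± 0.54 (adjusted p = 0.00108), and did not differ past the threshold for Mlxipl (-1.26 ± 0.43, adjusted p = 0.0726, and 0.0299 without the second chow LSEC library). In chain synthesis it was higher in LSEC for Fasn (-1.63 ± 0.37, adjusted p = 0.0117), Me1 (-1.40 ± 0.34), Acly (-1.02 ± 0.16) and Slc25a1 (-0.49 ± 0.15). Me1 missed the threshold without the first or the third chow LSEC library (0.0503 and 0.0631), and Slc25a1 did so under 10 alternatives, with 0.306 when libraries were scaled by total reads. Desaturases were divided: Scd2 had the higher effect in liver (1.58 ± 0.27, adjusted p = 0.00118), Fads2 in LSEC (-1.75 ± 0.27, adjusted p = 0.00201), and Scd1 did not pass (-2.10 ± 0.77, adjusted p = 0.0879, and 0.0253 without the second chow LSEC library).

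Elongases were divided too. Elovl1 and Elovl7 had the higher effect in liver, by 0.78 ± 0.15 and 1.82 ± 0.59 (adjusted p = 0.00376 and 0.0422), and Elovl2, Elovl5 and Elovl6 had it in LSEC. The Elovl2 difference was the largest of the list at -4.07 ± 1.09 (adjusted p = 0.0391), and its LSEC values, 242.5, 225.8 and 739 normalized reads in NASH against 51.19, 277.4 and 10.24 in chow, had the order of Alb among the chow libraries. It missed the threshold without any 1 of the LSEC libraries other than the second chow library, with adjusted p of 0.0735 to 0.124, and with edgeR (0.0702). Elovl7 missed it under 12 of the alternatives (up to 0.112). All 3 acyl-CoA synthetases had the higher effect in LSEC, by -1.17 ± 0.23 for Acsl3, -1.002 ± 0.230 for Acsl4 and -0.66 ± 0.15 for Acsl5 (adjusted p = 0.00268, 0.00793 and 0.00758), with the Acsl5 difference at an adjusted p of 0.0703 when libraries were scaled by total reads. In assembly the same held for Gpam (-1.60 ± 0.36), Lpin2 (-1.66 ± 0.27) and Agpat3 (-0.55 ± 0.17), with adjusted p of 0.0116, 0.00154 and 0.0336. Gpam was at 0.0521 without the third chow LSEC library, and Agpat3 missed the threshold under 10 alternatives, with 0.236 when libraries were scaled by total reads. Mogat1 had a difference of -0.02 ± 0.61 (adjusted p = 0.986), a value that rests on its 19 LSEC reads; at a pseudocount of 10 it was 1.84 and passed (adjusted p = 0.000619). Pnpla3 had the higher effect in liver by 2.85 ± 0.65 (adjusted p = 0.00566).

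A further list of 40 genes of the same pathways was set beside the members. In liver 10 were higher, 16 were lower and 14 did not pass, and the median was -0.10 on the log2 scale. Over all liver genes 25.0% were higher and 21.0% lower. The 3 with the smallest adjusted p among the higher genes were Pgd, an NADPH-producing dehydrogenase of the pentose phosphate pathway (1.00 ± 0.08), Pparg, a nuclear receptor of lipid storage (1.38 ± 0.14), and Acss1, the mitochondrial acetyl-CoA synthetase (2.05 ± 0.25). Among the lower genes they were Srebf2, the SREBP of cholesterol synthesis (-0.92 ± 0.09), Scap, the escort protein of SREBPs (-0.86 ± 0.09), and Acsl1, the main acyl-CoA synthetase of liver (-1.11 ± 0.14). In LSEC 3 of 40 were higher, Pparg (1.60 ± 0.19), Nr1h3, the liver X receptor alpha (1.59 ± 0.34), and G6pdx, the first enzyme of the pentose phosphate pathway (0.57 ± 0.12), and 1 was lower, Fads3 (-1.25 ± 0.30). Over all LSEC genes 5.24% were higher and 2.86% lower. Macrophage markers were higher in NASH LSEC as given above, and their part in these values was not tested.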

How the data were processed

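RNA-seq of 6 whole livers and 6 LSEC preparations was used, 3 NASH and 3 chow in each. The submitters' processing notes name mm10 and the tools STAR, HTSeq and DESeq2, whose versions the sources used here do not give. The deposited signal of each library is a read count divided by 1 factor per library: dividing by the value of 1 read gave whole reads (tolerance 0.01) for every value. The deposited tables also hold the authors' log2 fold changes and adjusted p-values. The 2 tables were normalized separately. LSEC columns carry no replicate number and are numbered by position, as names only. Replicate libraries differed by a chi-square of 14.7 to 85.8 per degree of freedom, so none was a copy. Intervals and floors from reads cover counting error only.

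Each tissue was tested alone with limma 3.58.1 (R 4.3.3, trend) on log2(normalized reads + 1), with no filter and Benjamini-Hochberg adjustment over all genes. Fold changes on this scale understate those of genes with few reads. edgeR 4.0.16 and DESeq2 1.42.0 on recovered reads were alternatives, with other pseudocounts (0.5 and 10), a filter at a mean of 10, scaling by total reads, a threshold of 0.01, a replicate block and each library left out. The steps were also run on simulated data, with limma on counts scaled by total reads. That run does not test the choice of scaling. Coordinates and exon lengths are from GENCODE M21. The genes and lists were chosen with earlier results of these data known. Values in every library of a tissue are given for genes with an adjusted p under 0.05 in that tissue, and for the regulators in both. Of the further 40 genes the 3 with the smallest adjusted p per tissue and direction are named. Replicate numbers of liver did not pair the libraries (correlations of same-numbered deviations of -0.014, -0.016 and 0.098).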

Additional observations from a re-analysis of the deposited data

Results flagged for a closer look

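For 20 of the 33 genes in both tables, the change with NASH was not the same in whole liver as in LSEC by the test of the difference itself. The values here are liver minus LSEC on the log2 scale. The effect was higher in liver for Srebf1 (1.69), Thrsp (3.18), Scd2 (1.58), Elovl1 (0.78), Elovl7 (1.82) and Pnpla3 (2.85). The effect was higher in LSEC for Acly (-1.02), Slc25a1 (-0.49), Me1 (-1.40) and Fasn (-1.63) of chain synthesis. Of the desaturases and elongases it was higher in LSEC for Fads2 (-1.75), Elovl2 (-4.07), Elovl5 (-1.08) and Elovl6 (-1.34). The same held for Acsl3 (-1.17), Acsl4 (-1.002), Acsl5 (-0.66), Gpam (-1.60), Agpat3 (-0.55) and Lpin2 (-1.66). Among these genes with the higher effect in LSEC, only Fasn was called in LSEC by limma. The log2 fold change within LSEC was 0.04 for Acly, -0.20 for Slc25a1, -0.05 for Elovl5 and -0.08 for Agpat3. Of these 20, 13 passed at 0.05 under each alternative run for the difference, which were 1 limma fit over both tissues, edgeR, a pseudocount of 10, the filter, scaling by total reads and each library left out. A threshold of 0.01 was not among them, and of the 13 Fasn (0.0117) and Elovl6 (0.0115) were above it. Elovl2 had the order of Alb among the chow LSEC libraries. The part of hepatocyte RNA in its difference, and in those of the other genes, was not tested. Groups of 3 libraries were not tested for single values far from the others.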

How the results depend on the processing

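In liver 20 of the 30 calls passed under every alternative. Scaling by total reads left 10 genes of the list lower (904 over all 16703 genes), since it shifts all liver changes by 0.401 (0.135 in LSEC). Under it Me1 turned to 0.25 and Acsl5 to 0.0006. Dgat2 turned to -0.10 without the first NASH liver and to -0.02 without the first chow liver. In LSEC the 4 higher genes became 9 with scaling by total reads, 11 with DESeq2 and 0 at a threshold of 0.01. They became 0 to 6 when single libraries were left out. Over all genes the 853 higher became 1164, 1581 and 81 under the same settings, and 75 to 793 when single libraries were left out. Scaling by total reads turned Elovl5 to 0.0872 and Agpat3 to 0.06 in LSEC. When single LSEC libraries were left out, values that had not passed changed sign for Elovl5 (-0.1421 to 0.0390), Acly (-0.0322 to 0.1164), Acacb (-0.4330 to 0.0520), Agpat3 (-0.1508 to 0.0318) and Elovl3 (-1.5382 to 0.0959). For the difference between tissues, 9 to 16 genes had the higher effect in LSEC when single libraries were left out, 9 of them without the third chow LSEC library; Mogat1 turned to 1.84 at a pseudocount of 10 and passed (adjusted p = 0.000619), and turned to 0.33 with scaling by total reads and ranged over -0.3842 to 0.3973 without single libraries, and Dgat1 turned to 0.0041 with scaling by total reads. With the replicate block, liver had 12 higher and 18 lower genes (Elovl6 gained at an adjusted p of 0.0427, Pnpla5 lost at 0.0537), and no other call changed; only in number 3 did both libraries correlate best with their own number. No paired analysis was possible in LSEC because its columns carry no replicate number. Depth limits Mogat1 in LSEC and Pnpla5 in liver, with 19 and 12 NASH reads in all.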

Other observations

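Single libraries stood high or low within their group for many genes of the list. The first NASH liver was the highest of its group for 14 of 34 genes, among them the 3 regulators, Fasn and Dgat2. The second was the highest for 16, and the third was the lowest for 20. Among chow livers the third was the highest for 18 of the 33 genes with a read in chow, among them the 3 regulators, Aacs, Acaca and Fasn, and the lowest for 10, among them Acacb, Elovl5 and Elovl6. In LSEC the third NASH library was the highest of its group for 22 of 33 genes, and it was also the NASH library with the most Alb reads.

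A pair of further genes of the pathway were chosen after their values were seen. Insig1, which holds the SREBP escort in the endoplasmic reticulum, had 2343, 2061 and 2161 normalized reads in NASH livers, against 7160, 8584 and 19113 in chow livers (log2 fold change -2.27 ± 0.29, limma adjusted p = 0.000234), the largest fall of the 40 further genes. Scd3, a desaturase of the same cluster as Scd1, had 10.1, 14.07 and 12.87 in NASH livers, against 1.186, 0 and 0 in chow livers (3.35 ± 0.52, limma adjusted p = 0.000733), and shares 6.66% of its 50-base words with other genes, mainly Scd1.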
